A study of Saccharomyces cerevisiae with 48 samples.

Results

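Ribosome footprints were compared with mRNA in the largest cells of a cell-size series of budding yeast (Saccharomyces cerevisiae), those harvested at 75 fl, the size reached at the end of the cell cycle. The libraries were taken by their labels alone and are 6 of the 48 in the study, 3 of footprints and 3 of mRNA. All are from the diploid laboratory strain BY4743, with no mutation, drug or other treatment setting the groups apart. Cells grew in the rich glucose medium YPD. Newborn, unbudded G1 cells were collected by centrifugal elutriation, which separates cells by size, and were left to grow until they reached the wanted volume. Fractions of equal size were combined into a pool, and 3 pools named A, B and C were made at each of 8 sizes. Every pool was split between a library of poly(A) mRNA and a library of the RNA that ribosomes shield from RNase I, the latter depleted of ribosomal RNA. Tables of 3301 genes were compared, and a pool is a mixture of many elutriated fractions, so that p-values measure the spread between these pools.

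A ribosome covers a short stretch of the mRNA it is reading, and nuclease removes what is not covered. The number of protected fragments from a gene therefore follows both how much of its mRNA there is and how many ribosomes each mRNA carries. The ratio of footprints to mRNA is the usual measure of the latter and is often called translational efficiency. In yeast, upstream open reading frames, structured leaders and mRNA-specific repressors are known ways of lowering it. The study's title names translational control of lipid-synthesis enzymes, so those enzymes were examined beside the translation machinery, metabolic enzymes, surface proteins and cell cycle genes. All ratios below are log2 of footprint over mRNA after both were scaled to a common library size (CPM, with trimmed-mean factors over the 6 libraries). A ratio of 0 means the same scaled share of reads in both assays, not equal numbers of ribosomes and mRNAs. Values in threes are in the order pools A, B and C.

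The mRNA libraries held 1483084, 3137447 and 1417816 counted reads, and the footprint libraries 918861, 1541937 and 2664167. No gene was without reads in the mRNA libraries or in footprint libraries A and B, and 3 genes had no reads in footprint library C. Of the 3301 genes, 108, 78 and 70 had under 10 footprint reads. Since the deposited mRNA table has at least 10 reads for every gene in every library, genes with less mRNA are not covered here. Log2 levels of the 3301 genes correlated at 0.88 to 0.95 (Pearson) between mRNA libraries and at 0.84 to 0.94 between footprint libraries. Across assays the correlation was 0.31 to 0.38 for mRNA libraries A and C and 0.57 to 0.62 for mRNA library B, which stood apart from the other mRNA libraries in this way. The middle 90% of genes spanned 4.37 to 4.92 log2 units in mRNA and 6.41 to 7.39 in footprints.

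The footprint library labelled replicate A went against its label. Likeness to a size was measured over the 500 genes whose mRNA varied most with size, as the Spearman correlation between a library's deviation from its assay mean and the mean mRNA deviation at that size. Footprint libraries B and C correlated at 0.58 and 0.53 with the mRNA profile of 75 fl and at -0.65 and -0.63 with that of 40 fl. The library labelled replicate A correlated at -0.50 with 75 fl and at 0.76 and 0.80 with 40 and 45 fl. All 3 mRNA libraries correlated at 0.73 to 0.85 with their own size, whose mean includes them. Values of pool A are given under its label throughout. Results without pool A are given for a part of the groups and genes, and others also moved.

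**Figure D1:**
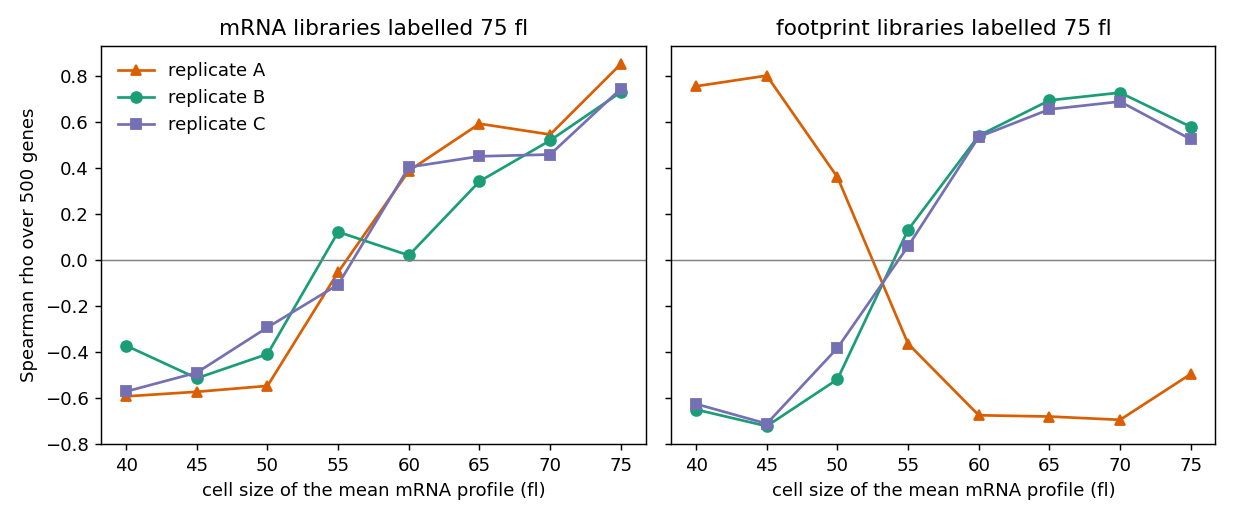
Spearman correlation of each library labelled 75 fl with the mean mRNA profile of each size (x axis, fl), over 500 genes; mRNA libraries on the left and footprint libraries on the right, 1 line per replicate. Footprint libraries B and C reach 0.73 and 0.69 at 70 fl, whereas the one labelled replicate A falls from 0.80 at 45 fl to -0.50 at 75 fl.

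The labelled stage was checked against cell cycle genes. Only 2 of 12 markers of the M/G1 boundary, 3 of 10 of the mitotic CLB2 cluster and 2 of 9 of the G1/S transition were in the tables. The mRNA of the CLB2 cluster markers ALK1, SPO12 and MYO1 stood on average 1.56, 1.34 and 1.41 log2 units above its mean over the 8 sizes. That of the M/G1 markers, SIC1 and CTS1, stood 1.26, 1.85 and 2.15 above. The G1/S markers RAD27 and PRI2 were on average at 0.19, -0.37 and 0.46, with PRI2 alone at -0.70 in library B and 0.56 in C. In libraries made from many cells, fewer cells of a stage and less RNA per cell cannot be told apart. In footprints the CLB2 cluster markers were at -1.29 in the library labelled replicate A and at 2.32 and 1.76 in B and C. The M/G1 markers were at -0.64, 1.36 and 2.76 there. The G1/S markers were at -0.28, 1.22 and 0.84, so that footprints of all 3 stages were raised in B and C.

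Over all genes, 919 of 3301 (27.8%) had a higher and 978 (29.6%) a lower footprint share than mRNA share (edgeR quasi-likelihood test, Benjamini-Hochberg adjusted p under 0.05). The median log2 ratio was -0.16, and the fitted values ran from -5.65 to 7.22. Of the 1897 called genes, 1878 had a ratio of 1 sign in all 3 pools and 1798 differed by more than 1 log2 unit. The median SD of a gene's ratio over the pools was 0.61. Without pool A, 879 genes (26.6%) were higher and 859 (26%) lower, and 1579 of the 1897 calls were shared with the fit of all pools, each with the same sign. The split between higher and lower depends on the scale. With library totals alone the median moved to -1.16, with 350 genes higher and 1646 lower. Ratios of a group are therefore best read against the median of all genes, and the split under library totals is given beside each group. Each such split is to be read beside the 350 higher and 1646 lower of all 3301 genes under that scale. Without mRNA library B, the one nearest to the footprints, 851 were higher and 919 lower.

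**Figure D2:**
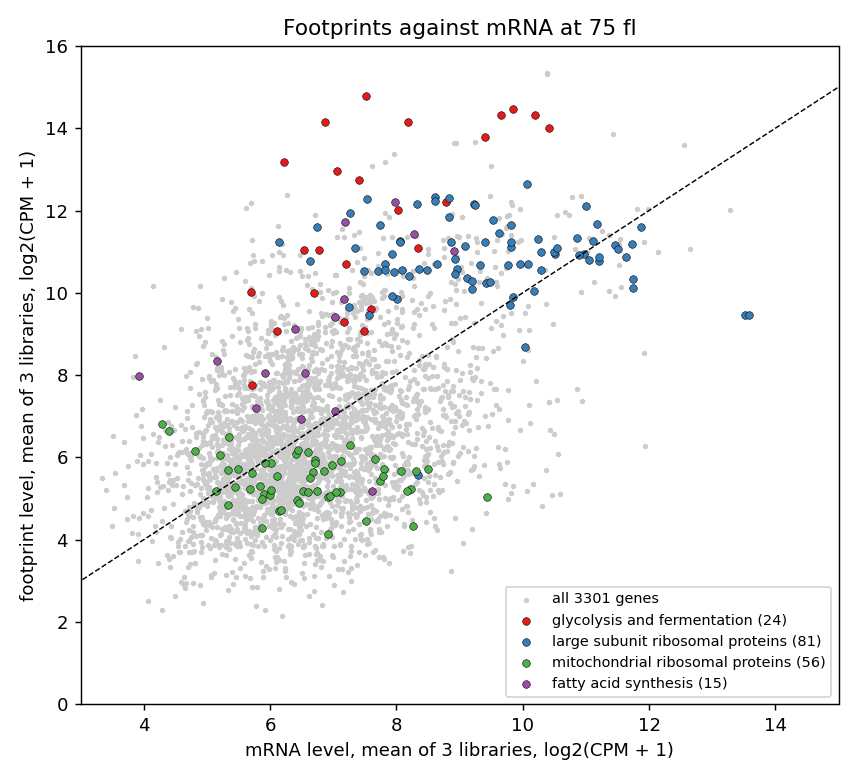
Mean footprint level (y axis) against mean mRNA level (x axis) of each gene at 75 fl, both as log2(CPM + 1) over 3 libraries; the dashed line marks equal levels. All 24 glycolytic and fermentation genes lie above the line, and 49 of the 56 mitochondrial ribosomal protein genes have a fitted ratio below 0.

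Enzymes of glycolysis and fermentation, most of which turn glucose into ethanol, had the highest ratios of the groups examined. The group also holds GPD1, GPD2 and GPP1 of glycerol synthesis, and ALD6 and ACS2, which make acetate and acetyl-CoA. All 24 counted genes were called higher, against 27.8% of all genes, with a median log2 ratio of 4.21 beside -0.16 for all genes. They were higher under library totals in 21 cases, with none lower. TDH3, a glyceraldehyde-3-phosphate dehydrogenase, had 118, 493 and 103 CPM in mRNA and 12095, 47562 and 39478 CPM in footprints. No mRNA value came near a footprint value, and the fitted log2 ratio was 7.11 (SE 0.98, edgeR adjusted p = 0.00023). Its copies TDH2 and TDH1 followed at 7.07 (SE 0.87) and 6.93 (SE 0.87); the 3 genes are near-identical in sequence, and no source used here says how shared reads were divided. Per kilobase, TDH3 ranked 4th, 1st and 2nd among footprints and 1102nd, 270th and 1232nd among mRNAs.

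Phosphoglycerate kinase, PGK1, had 101, 294 and 78.5 CPM in mRNA and 2108, 14628 and 16523 CPM in footprints, a log2 ratio of 6.13 (SE 0.93, edgeR adjusted p = 0.00034). Pyruvate kinase, CDC19, had 193, 771 and 164 CPM in mRNA against 9407, 26769 and 24235 CPM in footprints, a ratio of 5.74 (SE 0.85, edgeR adjusted p = 0.00031). Both kinases had their highest mRNA level in library B and their lowest footprint level in the library labelled replicate A, with no overlap between assays. The enolase ENO2 had a ratio of 4.75 (SE 0.71). The smallest ratios of the group belonged to the mitochondrial alcohol dehydrogenase ADH3, at 1.69, and the glycerol-3-phosphate dehydrogenase GPD2, at 1.83. The group's median ratio was 3.51, 4.03 and 4.91 in the pools. The 24 mRNAs were at 7.45 log2 CPM at the median and the 24 footprint levels at 12.11. The low rank of glycolytic mRNAs in these poly(A) libraries moves with the high ratio, and its part in the result was not tested.

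Of the translation machinery, the elongation and termination factors stood highest. Of 15 counted genes, 14 were higher, against 27.8% of all genes, and none lower, at a median of 3.26. Under library totals 11 were higher and none lower. TEF1, which encodes the elongation factor eEF1A that brings aminoacyl-tRNA to the ribosome, had 1011, 2707 and 884 CPM in mRNA and 27362, 48536 and 53141 CPM in footprints. Its ratio was 4.81 (SE 0.74, edgeR adjusted p = 0.00035), and its near-identical copy TEF2 gave 4.80 (SE 0.74). RLI1, the ABC protein that recycles ribosomes after termination, had 29.1, 46.8 and 22.6 CPM in mRNA and 722, 482 and 510.5 CPM in footprints, a ratio of 4.11 (SE 0.45, edgeR adjusted p = 0.00015). TEF4, a subunit of the exchange factor eEF1B, reached 3.95 (SE 0.51), and YEF3, the fungal elongation factor 3, 2.42 (SE 0.50). TEF4 overlaps another annotated gene, and no source used here says whether reads were counted by strand.

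Initiation factors lay mostly above the median of all genes, 21 of 27 under either scaling. Of the 27, 13 were higher and 3 lower with a median of 0.85, beside 27.8% higher and 29.6% lower of all genes. Under library totals 6 were higher and 7 lower, where all 3301 genes had 350 higher and 1646 lower. The RNA helicase DED1, which unwinds leaders during scanning, had 52.6, 55.5 and 50.5 CPM in mRNA and 2705, 1324 and 1527 CPM in footprints. The mRNA libraries differed little and every footprint value was over 20 times the mRNA value of its pool, with a fitted ratio of 5.13 (SE 0.49, edgeR adjusted p = 0.00015). PAB1, the poly(A)-binding protein, had 50.7, 189.9 and 70.9 CPM in mRNA and 1723, 2076 and 1999 CPM in footprints, a ratio of 4.21 (SE 0.57, edgeR adjusted p = 0.00022). The 3 lower genes, named after their values were seen, were TIF11 (eIF1A) at -1.64, the eIF2B subunit GCD1 at -1.59, and SUI1 (eIF1), at -1.25. SUI2, the alpha subunit of eIF2, which carries the initiator tRNA, went the other way, at 3.24 (SE 0.51).

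Among aminoacyl-tRNA synthetases, which charge tRNAs, 19 of 21 were higher, against 27.8% of all genes, and none lower, with a median of 2.12. Under library totals 9 were higher and 1 lower. ALA1, the alanyl-tRNA synthetase, varied little between libraries, with 138, 121 and 134 CPM in mRNA and 979, 1043 and 1119.9 CPM in footprints. Its ratios were 2.81, 3.10 and 3.06, and the fit gave 3.00 (SE 0.38, edgeR adjusted p = 0.00018). YDR341C, listed as the arginyl-tRNA synthetase of the cytosol, reached 3.74 (SE 0.50).

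Cytosolic ribosomal protein genes were mostly higher but covered a wide range. In the large subunit 48 of 81 were higher and 6 lower, with a median of 1.58. In the small subunit 29 of 57 were higher and 3 lower, with a median of 1.21. Of all genes 27.8% were higher and 29.6% lower. Under library totals these became 30 against 20 and 11 against 17, where all 3301 genes had 350 higher and 1646 lower. Of the small subunit genes, 45 of 57 lay above the median of all genes under either scaling. ASC1, the RACK1-like protein of the small subunit, led them with 69.95, 90.3 and 69.3 CPM in mRNA, 3073, 6743 and 7380.3 CPM in footprints and a ratio of 6.22 (SE 0.59, edgeR adjusted p = 0.00015). RPL12B and RPL7B reached 5.03 (SE 0.56) and 4.94 (SE 0.54). At the other end were the 2 genes of the shortest ribosomal protein: RPL41A had 10359, 8365 and 21072 CPM in mRNA and 520.4, 1029 and 651 CPM in footprints, a ratio of -4.18 (SE 0.62, edgeR adjusted p = 0.00031). RPL41A had the highest mRNA level per kilobase of all genes in each mRNA library. The other lower genes of the large subunit were RPL41B, RPL22B, RPL39, RPL38 and RPL31B, and those of the small subunit RPS18B, RPS30A and RPS27A, named after their values were seen. Most of these proteins come from paired, near-identical genes, so single values are uncertain; ASC1 and RPL7B also overlap other annotated genes.

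Ribosomal proteins of the mitochondrion behaved otherwise. Of 56 counted genes 32 were lower and 5 higher, against 29.6% of all genes lower, with a median of -1.13 and pool medians of -1.21, -0.91 and -1.36. Under library totals 48 were lower and 2 higher. MRPS16 had 642, 485 and 1065 CPM in mRNA and 33.5, 28.1 and 34.1 CPM in footprints, a ratio of -4.51 (SE 0.47, edgeR adjusted p = 0.00015). MRP21 followed at -4.04 (SE 0.45). The lowest mRNA value of MRP21, in library B, was still over 8 times its highest footprint value. The 5 higher genes, named after their values were seen, were MRPS12, MNP1, MRPS9, NAM9 and MRPL9, from 2.55 down to 0.86. MRPL9 was at 1.04 (SE 0.46, edgeR adjusted p = 0.07) without pool A, and its sign turned under library totals. These are short genes, 33 of the 56 falling in the shortest of 5 length classes of equal size, and relative to the median of each gene's own length class the median ratio was -0.45. The part of length in the result was not tested.

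Ribosome biogenesis factors, which process ribosomal RNA and assemble subunits, depended on the footprint library that goes against its label. Over all pools 20 of 99 were higher and 16 lower, beside 27.8% and 29.6% of all genes, at a median of -0.08. Under library totals the split turned to 3 higher and 27 lower. The pool medians were 0.88, -0.70 and -0.95. Without pool A, 13 were higher and 37 lower at a median of -0.73, and with the pool as a block 19 were higher and 25 lower. UTP9, of the small subunit processome, was lower in each pool, with 1099.5, 678 and 870.0 CPM in mRNA and 212, 97.7 and 80.6 CPM in footprints and a ratio of -2.76 (SE 0.48, edgeR adjusted p = 0.00071). FAF1, which acts in processing of the small subunit rRNA, gave -3.00 (SE 0.53). NSR1, the yeast nucleolin, had 2336, 361 and 451 CPM in footprints against 82.6, 168 and 97.8 CPM in mRNA, and its ratio of 3.17 (SE 0.71), read after its values were seen, was highest in pool A.

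**Figure D3:**
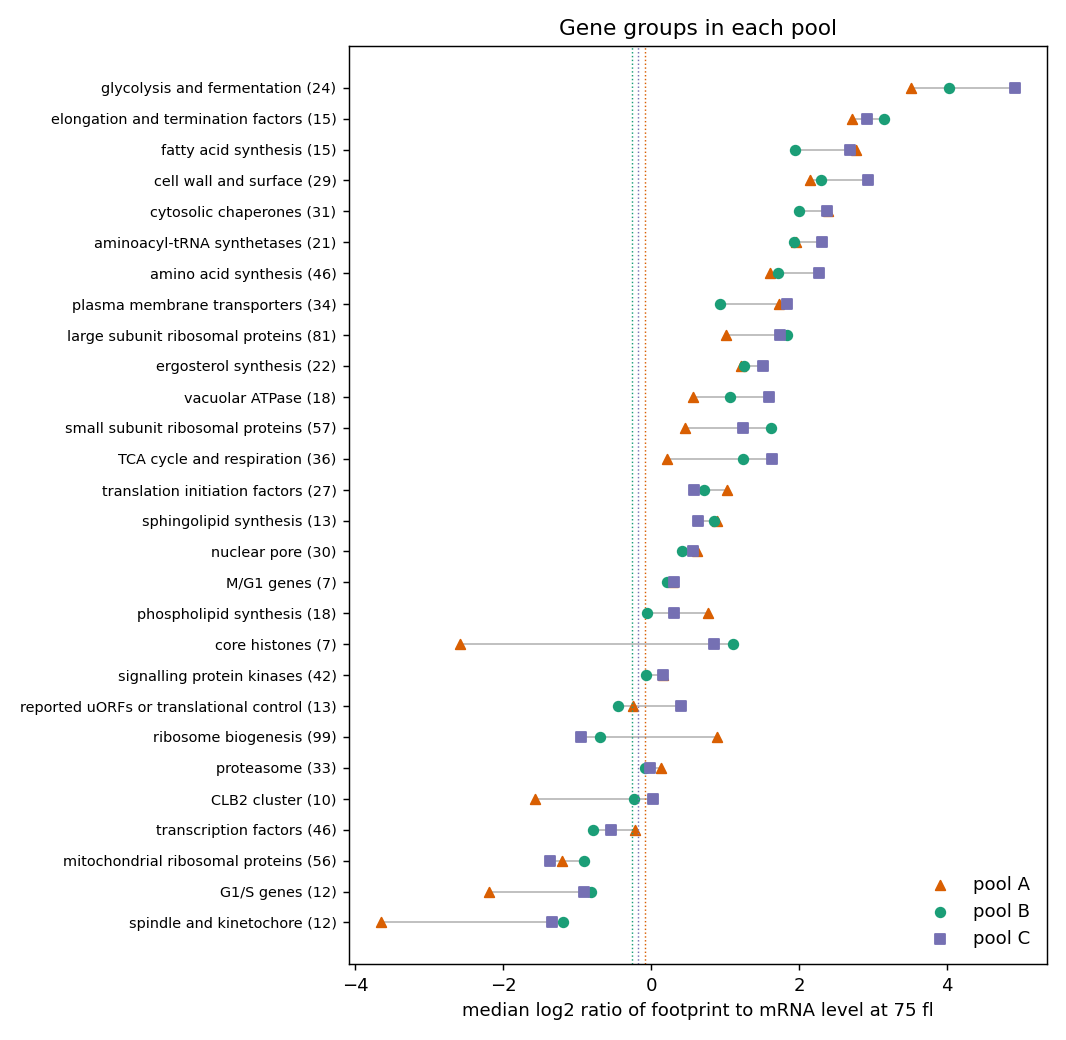
Median log2 ratio of footprint to mRNA level at 75 fl for each gene group (rows, number of counted genes in brackets) in each pool; dotted lines mark the median of all genes in that pool. Glycolysis lies at 3.51 to 4.91 and mitochondrial ribosomal proteins at -1.36 to -0.91, while ribosome biogenesis and the core histones have pool A on the other side of 0 from pools B and C.

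Outside ribosome biogenesis, leaving out pool A moved no group's count of higher or of lower members by more than 7 genes. The largest such moves were in the large subunit proteins, with 55 higher in place of 48, and the mitochondrial ribosomal proteins, with 25 lower in place of 32.

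Fatty acid synthesis genes were high as a group: 12 of 15 were higher, against 27.8% of all genes, and 1 lower, with a median of 2.69. Under library totals 8 were higher and 1 lower. FAS1 and FAS2, the 2 subunits of fatty acid synthase, had 229, 355 and 192 and 113, 279 and 96.7 CPM in mRNA, and 7790.4, 4064 and 3401 and 5491, 2726 and 2560.2 CPM in footprints. Each footprint value was over 9 times the mRNA value of its pool, and the ratios were 4.29 (SE 0.56, edgeR adjusted p = 0.00019) for FAS1 and 4.46 (SE 0.61, edgeR adjusted p = 0.00023) for FAS2. ACC1, the acetyl-CoA carboxylase that makes malonyl-CoA and commits carbon to fatty acids, had 290.1, 394 and 257 CPM in mRNA and 4449.7, 2464 and 1935 CPM in footprints. Its ratios were 3.93, 2.64 and 2.91, a fitted 3.23 (SE 0.49, edgeR adjusted p = 0.00034). For all 3 genes the footprint level was highest in the library labelled replicate A, and without that pool the ratios were 2.89 (SE 0.45, edgeR adjusted p = 0.00012) for ACC1, 3.91 (SE 0.51, edgeR adjusted p = 3.7e-05) for FAS1 and 3.95 (SE 0.55, edgeR adjusted p = 5.6e-05) for FAS2.

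OLE1, the single desaturase that makes unsaturated fatty acids, was the lipid enzyme that depended most on 1 library. It had 525, 703 and 303 CPM in mRNA but 11062, 1210.2 and 662 CPM in footprints, so that the library labelled replicate A was far above the other footprint libraries. The fitted ratio over all pools was 3.08 (SE 0.93, edgeR adjusted p = 0.015). Without pool A it was 1.03 (SE 0.48, edgeR adjusted p = 0.083) and no longer passed. The elongase ELO2, which makes very long chain fatty acids, was even, with 40.8, 34.8 and 29.6 CPM in mRNA, 306, 409 and 272 CPM in footprints and a ratio of 3.23 (SE 0.38, edgeR adjusted p = 0.00015). The 1 lower gene, HFA1, the mitochondrial acetyl-CoA carboxylase, had 319.7, 146 and 160.1 CPM in mRNA and 27.7, 38.5 and 41.3 CPM in footprints, a ratio of -2.53 (SE 0.42, edgeR adjusted p = 0.00054). HFA1 and ACC1 thus lay on opposite sides of 0 in every pool.

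Other lipid pathways had smaller medians. Ergosterol synthesis had 12 of 22 genes higher and 1 lower at a median of 1.44, beside 27.8% and 29.6% of all genes. Under library totals the split was 8 against 4. ERG28, a scaffold of the sterol demethylation enzymes, had 12.2, 14.2 and 15.05 CPM in mRNA and 134, 133 and 121 CPM in footprints, a ratio of 3.22 (SE 0.33, edgeR adjusted p = 0.00015). NCP1, the cytochrome P450 reductase, reached 2.98 (SE 0.40), and the 1 lower gene was IDI1, the isopentenyl diphosphate isomerase, at -1.44 (SE 0.42). Phospholipid synthesis had 7 of 18 higher and 3 lower at a median of 0.41, beside 27.8% and 29.6% of all genes. The split turned to 3 against 6 under library totals. Without pool A the median was 0.09, with 6 higher and 3 lower. CHO2, the first methyltransferase on the way to phosphatidylcholine, had 37.6, 73.3 and 41.9 CPM in mRNA and 564, 416 and 416 CPM in footprints, a ratio of 3.18 (SE 0.42, edgeR adjusted p = 0.0002). CDS1, which makes CDP-diacylglycerol, gave 2.36 (SE 0.34). The 3 lower genes were the acyltransferase SCT1 at -2.43, the phosphatidylserine decarboxylase PSD2 at -1.98, and the cardiolipin synthase CRD1, at -1.71; CRD1 without pool A was at -1.09 (SE 0.48, edgeR adjusted p = 0.068). Sphingolipid synthesis had 6 of 13 higher and 2 lower at a median of 0.72, beside those same shares of all genes. Under library totals it had none higher and 4 lower. CSG2, needed for mannosylated sphingolipids, gave 1.73 (SE 0.32), and TSC3, the small activating subunit of serine palmitoyltransferase, -2.65 (SE 0.45).

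**Figure D4:**
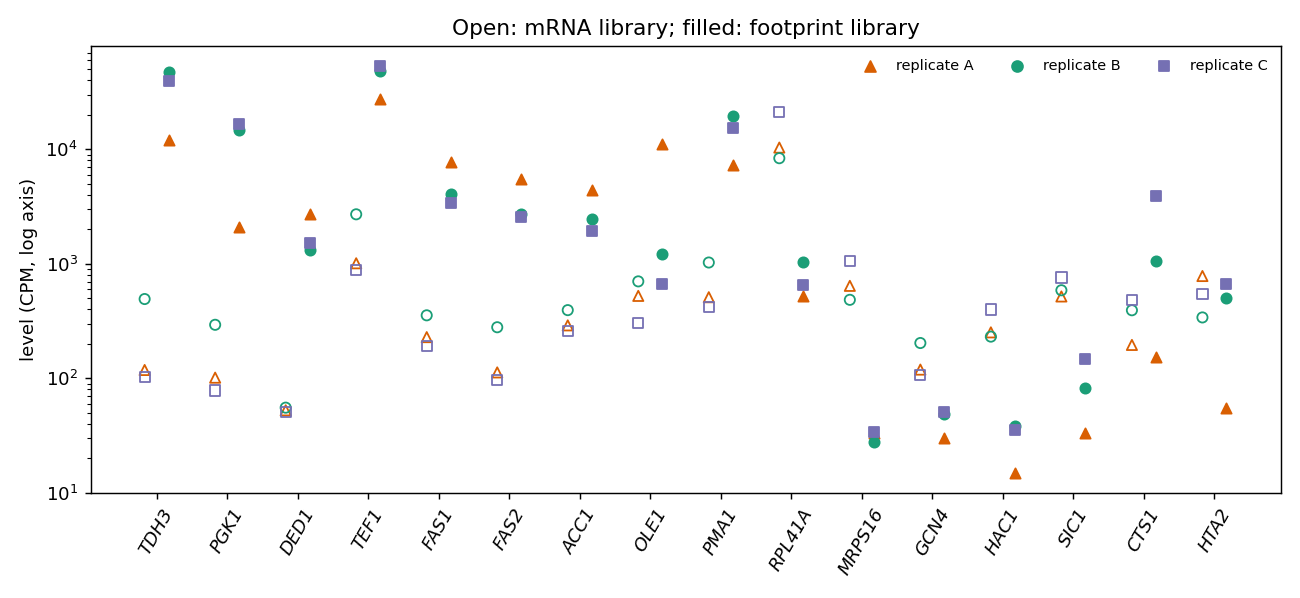
Levels of 16 genes in the 6 libraries labelled 75 fl (y axis, CPM on a log axis); open symbols are mRNA and filled symbols footprint libraries, with 1 shape and colour per replicate. TDH3 footprints lie at 12095 to 47562 CPM over mRNAs at 103 to 493, RPL41A is inverted, and OLE1, CTS1 and HTA2 have the footprint library labelled replicate A far from B and C.

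The cell wall and surface group was high without exception among the calls. Of 29 genes 24 were higher, against 27.8% of all genes, and none lower, at a median of 2.59. Under library totals the split was 15 against 2. Beside wall and surface proteins it holds SEC53, PSA1, PMT1, PMT2, MNN1 and MNN2, intracellular enzymes that supply or transfer mannose. GAS1, a glucan-remodelling enzyme of the wall, had 131, 177 and 124 CPM in mRNA and 1699.8, 2918 and 3546 CPM in footprints, a ratio of 4.24 (SE 0.49, edgeR adjusted p = 0.00015). CCW14, a mannoprotein of the wall, reached 3.96 (SE 0.47). Plasma membrane transporters had 23 of 34 higher, against 27.8% of all genes, and 1 lower, at a median of 1.61. Under library totals the split was 4 against 2, and without pool A it was 19 against 2. PMA1, the proton pump of the plasma membrane, had 511, 1027 and 419 CPM in mRNA and 7248, 19609 and 15216 CPM in footprints, a ratio of 4.43 (SE 0.65, edgeR adjusted p = 0.00031). TRK1, the potassium transporter, was the 1 lower gene, with 394, 269 and 229 CPM in mRNA, 49.6, 42.6 and 49.8 CPM in footprints and a ratio of -2.65 (SE 0.38, edgeR adjusted p = 0.00027). PMP1, a small proteolipid that regulates PMA1, went with the pump at 4.15 (SE 0.43).

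Of 18 genes of the vacuolar proton pump, 10 were higher and 4 lower with a median of 1.24. The shares of all genes were 27.8% higher and 29.6% lower. Under library totals 6 were higher and 7 lower, where all 3301 genes had 350 higher and 1646 lower. VMA11, of the membrane ring, had 10.8, 17.01 and 13.4 CPM in mRNA and 330.0, 376 and 354 CPM in footprints, a ratio of 4.67 (SE 0.40, edgeR adjusted p = 0.00015). VMA13, of the peripheral sector, gave 3.89 (SE 0.46). The 4 lower genes were the assembly factors VMA22 and VMA21, at -3.42 and -2.10, and the peripheral subunits VMA7 and VMA10, at -1.43 and -1.04. Without pool A, VMA10 was at -0.95 (SE 0.44, edgeR adjusted p = 0.083).

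Amino acid synthesis had 34 of 46 genes higher, against 27.8% of all genes, and 2 lower, at a median of 1.89. Under library totals the split was 20 against 8. ILV6, the regulatory subunit of acetolactate synthase, had 12.2, 40.3 and 13.4 CPM in mRNA and 300.0, 480.3 and 479 CPM in footprints, a ratio of 4.22 (SE 0.55, edgeR adjusted p = 0.00019). CYS4, the cystathionine beta-synthase, reached 3.87 (SE 0.50). The lower genes were ARO7, the chorismate mutase, at -1.30 and TRP1, of tryptophan synthesis, at -1.34; without pool A, TRP1 was at -0.94 (SE 0.44, edgeR adjusted p = 0.081). The tricarboxylic acid cycle and respiratory chain had 18 of 36 higher and 3 lower at a median of 1.18, beside 27.8% and 29.6% of all genes. Under library totals the split was 9 against 11, where all 3301 genes had 350 higher and 1646 lower. The pool medians were 0.21, 1.24 and 1.64. Without pool A 23 were higher and 3 lower at a median of 1.47. ATP1, of the ATP synthase, had 55.9, 121 and 49.97 CPM in mRNA and 597, 1899.5 and 3409 CPM in footprints, a ratio of 4.70 (SE 0.70, edgeR adjusted p = 0.00032). Aconitase, ACO1, gave 4.52 (SE 0.72). The 3 lower genes, QCR7, COX12 and QCR10, are small respiratory subunits of 384, 252 and 297 bases from start to stop.

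Chaperones had 21 of 31 genes higher, against 27.8% of all genes, and 1 lower, at a median of 2.28. Under library totals the split was 15 against 6. The group, named for its cytosolic members, also holds HSP60, HSP10 and HSP78 of the mitochondrion and KAR2 of the endoplasmic reticulum. SSB1 and SSB2, near-identical Hsp70 proteins that bind nascent chains at the ribosome, had ratios of 5.27 (SE 0.60) and 5.34 (SE 0.62). The 1 lower gene was CDC37, the kinase-specific cochaperone of Hsp90, at -1.10 (SE 0.37), which without pool A was -0.68 (SE 0.41, edgeR adjusted p = 0.18). The proteasome was balanced, with 11 of 33 higher and 7 lower at a median of -0.09, beside 27.8% and 29.6% of all genes. Under library totals the proteasome had none higher and 16 lower. SEM1, its smallest lid subunit, had 847, 499 and 1159.6 CPM in mRNA and 39.2, 62.4 and 74.05 CPM in footprints, a ratio of -3.83 (SE 0.48, edgeR adjusted p = 0.00018). PRE9, of the core particle, gave -1.88 (SE 0.39). Nuclear pore genes had 7 of 30 higher and 4 lower at a median of 0.55, both shares below those of all genes. Under library totals none of them was higher and 9 were lower. MLP1, of the nuclear basket, was lower at -2.36 (SE 0.40), and POM34, of the pore membrane ring, at -2.42 (SE 0.44).

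The counted genes of the G1/S transition and of the spindle, a minority of those listed, had low ratios. Of 42 listed G1/S genes 12 were counted. Of these none was higher and 8 were lower, against 29.6% of all genes, with a median of -1.36. Their pool medians were -2.19, -0.81 and -0.91, and without pool A 5 were lower at a median of -0.67. Under library totals 10 were lower and none higher. RFA3, of the single-strand DNA binding complex RPA, had 144, 127 and 271 CPM in mRNA and 30.00, 29.1 and 23.6 CPM in footprints, a ratio of -2.71 (SE 0.41, edgeR adjusted p = 0.00032). RAD27, the flap endonuclease of lagging-strand synthesis, gave -1.92 (SE 0.38). Of 34 listed spindle and kinetochore genes 12 were counted, with 6 lower and 1 higher at a median of -1.76, beside 29.6% and 27.8% of all genes. Under library totals 9 of them were lower and none higher. Their pool medians were -3.65, -1.19 and -1.34, and without pool A the median was -1.16, with 6 lower and 2 higher. MCM21, of the COMA kinetochore complex, had 124, 76.9 and 146 CPM in mRNA and only 3.46, 8.32 and 2.62 CPM in footprints, a ratio of -4.63 (SE 0.50, edgeR adjusted p = 0.00015). MIF2, the yeast CENP-C, gave -3.26 (SE 0.50). The 1 higher gene, beta-tubulin TUB2, had 99.2, 822 and 664 CPM in footprints against 176, 141 and 92.96 CPM in mRNA, and pool A lay on the other side of 0. Its ratio was 1.95 (SE 0.64, edgeR adjusted p = 0.021) over all pools, and 2.80 (SE 0.44, edgeR adjusted p = 0.00014) without pool A.

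SIC1, the inhibitor of S phase cyclin-kinase complexes that returns at the end of mitosis, was lower in every pool, with 519, 588 and 758 CPM in mRNA, 33.5, 83.2 and 147 CPM in footprints and a ratio of -2.81 (SE 0.52, edgeR adjusted p = 0.001). CTS1, a chitinase that acts in daughter cell separation, had 196, 393 and 483 CPM in mRNA and 152, 1052 and 3915 CPM in footprints. The library labelled replicate A was below its mRNA while B and C were above, and the ratio of 2.26 (SE 0.87, edgeR adjusted p = 0.043) had an adjusted p of 0.056 with the pool as a block. Without pool A it was 2.65 (SE 0.56, edgeR adjusted p = 0.0011). MCM3, of the replicative helicase, was higher at 2.44 (SE 0.45). In the CLB2 cluster, with 10 counted of 29 listed, 2 were higher, PMA1 and PMP1. The markers SPO12, MYO1 and ALK1 were the 3 lower genes, at -2.26, -1.99 and -1.86. The shares of all genes were 27.8% higher and 29.6% lower. Under library totals 2 of the cluster were higher and 6 lower. The cluster's median was -0.24 over all pools and 0.28 without pool A. Among M/G1 genes, with 7 counted of 27 listed, 2 were higher and 1 lower, with 1 of each under library totals. Their median was 0.49, and 0.31 without pool A.

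Core histone genes had no call over all pools, 0 of 7 in either direction, beside 27.8% higher and 29.6% lower of all genes. Their median was 0.16, and under library totals none was higher and 2 were lower. Their pool medians were -2.59, 1.11 and 0.84. HTA2, for histone H2A, had 783, 340.3 and 546 CPM in mRNA and 55.4, 504 and 668 CPM in footprints, and HHF2, for histone H4, 511, 257 and 322 and 66.9, 655 and 647. In both the library labelled replicate A was far below its mRNA and libraries B and C above theirs. Without pool A, 4 of 7 were called higher and none lower; HHF2 then had 1.31 (SE 0.41, edgeR adjusted p = 0.013), and HTA2 0.55 (SE 0.42, edgeR adjusted p = 0.29). Histone genes come in near-identical pairs, so that values of single copies are uncertain.

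Transcription factors had 5 of 46 higher and 13 lower at a median of -0.44, and signalling kinases 6 of 42 higher and 6 lower at 0.14, beside 27.8% higher and 29.6% lower of all genes. The lower share of the transcription factors was thus near that of all genes. Under library totals the counts were 1 against 26 and none against 19. MBP1, the DNA-binding subunit of the G1/S factor MBF, had 339, 193 and 231 CPM in mRNA and 49.6, 50.9 and 20.97 CPM in footprints, a ratio of -2.66 (SE 0.44, edgeR adjusted p = 0.00056). XBP1, a stress-induced repressor, was higher at 2.52 (SE 0.38). Of kinases, MRK1, a glycogen synthase kinase homologue, was lowest, with 139.9, 140.3 and 389.6 CPM in mRNA, 12.7, 8.32 and 16.4 CPM in footprints and a ratio of -4.13 (SE 0.54, edgeR adjusted p = 0.00019). SAK1, which activates the Snf1 kinase, gave -1.94 (SE 0.33).

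Of 19 listed genes with upstream open reading frames or other reported translational control 13 were counted, of which 4 were higher and 3 lower at a median of 0.01. These shares were near the 27.8% and 29.6% of all genes, and the split turned to 2 higher and 7 lower under library totals. Without pool A 4 were higher and 4 lower at a median of 0.30. HAC1, the factor of the unfolded protein response, whose unspliced mRNA is translationally silent in unstressed cells, had 252, 231 and 399 CPM in mRNA and 15.00, 38.5 and 35.4 CPM in footprints. Every footprint value was below every mRNA value, and the ratio was -3.30 (SE 0.46, edgeR adjusted p = 0.00023). GCN4, the amino acid control factor whose leader holds several upstream reading frames, had 119, 203 and 107 CPM in mRNA and 30.00, 48.9 and 51.1 CPM in footprints, a ratio of -1.72 (SE 0.38, edgeR adjusted p = 0.003). CPA1, the arginine-regulated carbamoyl phosphate synthetase subunit, had 202, 39.5 and 47.2 CPM in footprints against 321, 216 and 193 CPM in mRNA. Its ratio was -1.35 (SE 0.58, edgeR adjusted p = 0.064), which passed with the pool as a block (edgeR adjusted p = 0.0037) and without pool A, at -2.09 (SE 0.42, edgeR adjusted p = 0.00083). The G1 cyclin CLN3 had 12.7, 48.6 and 23.6 CPM in mRNA and 58.9, 81.1 and 31.5 CPM in footprints, a ratio of 0.97 (SE 0.51, edgeR adjusted p = 0.12); with the block its adjusted p was 0.047. The oxidative stress factor YAP1 gave -0.74 (SE 0.35, edgeR adjusted p = 0.09). LEU4, the isopropylmalate synthase of leucine synthesis, was the highest of the list at 3.38 (SE 0.47).

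The 8 highest ratios among genes that averaged 20 CPM or more in mRNA, with 1 sign in all pools, were those of TDH3, TDH2, TDH1, FAR11, YKL153W, ASC1, PGK1 and CDC19. FAR11, a member of a complex that keeps pheromone-treated cells arrested, had 57.3, 37.5 and 61.3 CPM in mRNA and 3957, 10489.6 and 2411 CPM in footprints, a ratio of 6.76 (SE 0.73, edgeR adjusted p = 0.00015). The open reading frame YKL153W, one of 41 not in the reference annotation, reached 6.25 (SE 0.80). Of those 41, 24 were higher and 6 lower, beside 895 higher and 972 lower of the 3260 annotated genes. No coordinates were at hand for YKL153W, so its overlap with other genes was not checked. By systematic name it stands next to YKL152C, the glycolytic gene GPM1. Whether reads of GPM1 were counted in it was not tested. The highest fitted ratio of all belonged to RUD3 and rested on 1 library: its footprint levels were 186, 934 and 97049 CPM, and 5.56% of all counted footprint reads in library C came from it. MDM20 had the same pattern, with 225, 715 and 49550.4 CPM. Both were named after their values were seen, and without pool C their ratios were 1.40 and 1.23, with edgeR adjusted p of 0.09 and 0.12.

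The 8 lowest were VPS20, CHZ1, RRP14, SDC1, HMRA1, TPM2, CGR1 and CHM7. VPS20, of the membrane-cutting ESCRT-III complex, had 765, 297 and 437 CPM in mRNA and 19.6, 8.32 and 3.28 CPM in footprints, a ratio of -5.65 (SE 0.67, edgeR adjusted p = 0.00015). Its footprint values rest on only 17, 8 and 5 reads. CHZ1, a chaperone of the histone variant H2A.Z, had 1639.9, 972 and 2317 CPM in mRNA and 23.1, 44.7 and 36.04 CPM in footprints, a ratio of -5.56 (SE 0.54, edgeR adjusted p = 0.00015). Every footprint value of these genes was below every mRNA value. RRP14 and CGR1, both of ribosome synthesis, gave -5.34 (SE 0.80) and -4.99 (SE 0.82), and each had its highest footprint level in the library labelled replicate A. Without pool A each was at -6.40. SDC1, of the COMPASS histone methyltransferase, gave -5.31 (SE 0.52), the minor tropomyosin TPM2 -5.08 (SE 0.74), and CHM7, an ESCRT-related protein of the nuclear envelope, -4.81 (SE 0.54). HMRA1, of the silent mating-type cassette, gave -5.09 (SE 0.52); the same sequence stands at the mating-type locus, so that its reads cannot be assigned to 1 of them.

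Ratios went with gene length. Lengths are from start to stop in the reference table, for 3260 genes. In the shortest of 5 classes of equal size, of 78 to 708 bases, the median ratio was -1.04, with 126 of 655 genes higher and 328 lower. In the second it was -0.17, in the third -0.02, in the fourth -0.03 and in the longest, from 2325 bases, 0.14. The shortest class was lowest in each pool, at -1.18, -0.77 and -1.30. The correlation of ratio and length was 0.19 (Spearman) and is a description over genes, which share the same 6 libraries. Ratios followed the footprint level (Spearman 0.74) more than the mRNA level (-0.30), both of which enter the ratio.

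The question whether ribosomes per mRNA differ in these large cells from those in smaller ones was put to the libraries at 40 and 55 fl, with 3 pools of each assay at each size. Those libraries held from 248840 (mRNA, 40 fl, replicate B) to 5659096 counted reads (footprints, 55 fl, replicate C). The footprint library labelled 40 fl replicate A also went against its label, with correlations of -0.65 with the mRNA profile of 40 fl and 0.74 with that of 70 fl, whereas libraries B and C correlated at 0.72 and 0.71 with 40 fl. Comparisons over all pools thus hold pool A footprints that go against their labels at both 40 and 75 fl. At 55 fl the footprint libraries correlated weakly with their own size, at 0.21, 0.29 and 0.11. Replicate A at 55 fl stood apart there too, at 0.63 with 60 fl, where B and C were at -0.08 and -0.28. Outside these sizes, footprint libraries labelled 45 and 70 fl replicate A were at -0.76 and -0.46 with their own sizes. Over all pools no gene differed between 75 and 40 fl or between 75 and 55 fl (0% of 3301 each, edgeR interaction test, adjusted p under 0.05). At an unadjusted p under 0.05 there were 367 and 63 genes. DESeq2 called 30 genes for 75 against 40 fl and none for 75 against 55 fl, and limma-voom called none in either. With pools B and C of all 3 sizes, a choice made after the data were seen, 79 genes (2.39%) had a higher ratio at 75 than at 40 fl and 140 (4.24%) a lower one, and 2 differed from 55 fl, both lower.

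Ribosome biogenesis genes made up 29 of those 140 lower calls, with none higher among the 99, and a median difference of -1.20. Relative to all genes, the group's median ratio in pools B and C was 0.54 and 0.40 at 40 fl and -0.44 and -0.78 at 75 fl. In the libraries labelled replicate A it was -1.25 at 40 fl and 0.97 at 75 fl. The order between labelled sizes was thus opposite in pool A, whose footprint libraries at both 40 and 75 fl go against their labels. DBP2, an RNA helicase of ribosome assembly, had ratios of -1.46, 3.68 and 4.15 at 40 fl, 1.68, 3.26 and 3.44 at 55 fl and 4.86, -0.33 and 1.00 at 75 fl, again relative to all genes. The difference between 75 and 40 fl in pools B and C was -3.58 (SE 0.49, edgeR adjusted p = 0.0015), and DBP2 and NAF1 were the 2 genes called between 75 and 55 fl. The 5 lowest of the 140 were YOR338W, CIP1, NAF1, MIG2 and VID24. NAF1, which assembles box H/ACA particles that modify rRNA, gave -4.21 (SE 0.51, edgeR adjusted p = 0.00078), and CIP1, an inhibitor of G1 cyclin-kinase complexes, -4.48 (SE 0.58, edgeR adjusted p = 0.0012). MIG2, a glucose repressor, gave -3.91 (SE 1.01, edgeR adjusted p = 0.036).

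The 5 highest were GPH1, YOP1, DYN1, GCY1 and SYM1. GPH1, the glycogen phosphorylase, had ratios relative to all genes of 1.55, -0.71 and -1.99 at 40 fl and -0.10, 1.41 and 3.00 at 75 fl. Its difference in pools B and C was 4.04 (SE 0.70, edgeR adjusted p = 0.0096). YOP1, a shaping protein of the endoplasmic reticulum, gave 4.02 (SE 0.40, edgeR adjusted p = 0.00012), and DYN1, the dynein heavy chain that positions the mitotic spindle, 3.53 (SE 0.87, edgeR adjusted p = 0.03). In pool A, by its labels, each of these 10 genes had the opposite order between 40 and 75 fl or a smaller difference than the one fitted to pools B and C.

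The enzymes of fatty acid synthesis were not called between sizes in any of these fits that used edgeR. ACC1 had ratios relative to all genes of 1.45, 2.01 and 2.04 at 40 fl, 1.71, 3.38 and 3.51 at 55 fl and 4.01, 2.89 and 3.08 at 75 fl. In pools B and C ACC1 was lower at 40 than at 75 fl. It was so in pool A by the labels, but both of its footprint libraries go against them, so that agreement of all 3 pools is not shown. The difference between those sizes was 1.48 over all pools (edgeR adjusted p = 0.39) and 0.90 (SE 0.44, edgeR adjusted p = 0.23) in pools B and C. FAS1 gave 0.06 (SE 0.48, edgeR adjusted p = 0.96) and FAS2 -1.06 (SE 0.57, edgeR adjusted p = 0.27) in pools B and C. OLE1 had ratios of -1.26, 2.73 and 3.24 at 40 fl and 4.47, 1.04 and 1.30 at 75 fl, with pool A again opposite, and a difference of -1.89 (SE 0.61, edgeR adjusted p = 0.074) in pools B and C. No group of lipid genes had more than 1 of its members called between 75 and 40 fl in those pools.

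**Figure D5:**
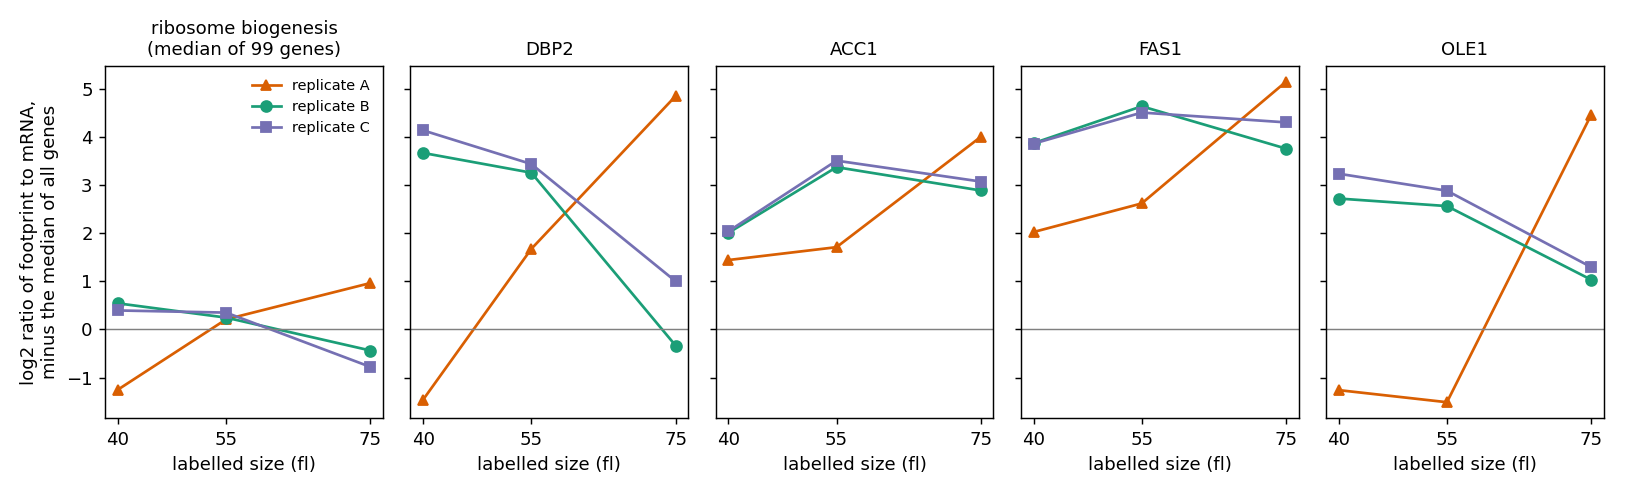
Log2 ratio of footprint to mRNA minus the median of all genes (y axis) at the labelled sizes of 40, 55 and 75 fl (x axis), for the median of 99 ribosome biogenesis genes and for DBP2, ACC1, FAS1 and OLE1, with 1 line per replicate. For DBP2 and OLE1 pools B and C fall from 40 to 75 fl while pool A rises, and for ACC1 pools B and C are higher at 75 than at 40 fl. The pool A footprint libraries at 40 and 75 fl go against their labels, so the direction of the pool A lines is by label only.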

How the data were processed

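Per the submitters' processing notes, the build was R64 and the tools were TopHat2 2.1.0, cutadapt 1.8, SAMtools 1.3-1, RSEM 1.2.20, bcl2fastq 2.17.1.14 and Bowtie 1.1.2. No source used here says which of them made which table, or whether reads were counted by strand. The authors deposited raw read counts of 3301 genes for mRNA and for footprints, without normalization. Their deposited log2 table served only to tell the assays of the count tables apart: 47 of 48 columns were closer to the same assay's block, at 75 fl by a median absolute difference of at most 0.18 against at least 0.47. Symbols came from a RefSeq table of R64 (3260 of 3301 names matched).

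Libraries were grouped by labelled assay and size. The quasi-likelihood test of edgeR 4.0.16, under R 4.3.3, compared footprints with mRNA over the 6 libraries of 75 fl, with TMM factors; the default filter on low counts kept all genes. Sizes were compared as the interaction of assay and size over 18 libraries at 40, 55 and 75 fl, with TMM factors within each assay. A gene was called at an adjusted p (Benjamini-Hochberg) under 0.05. CPM values are scaled by those factors, and pool ratios use a prior count of 2. Groups of genes were described by counts and medians, with no test. Both assays of a pool used the same cells, per the labels, and so are paired by label. At 75 fl their deviations from the group means correlated at 0.07, 0.03 and 0.11 for A, B and C, and at 55 fl at 0.35, 0.26 and 0.26. The footprint library of pool A goes against its label, so the pairing of pool A rests on the label alone. Alternatives were median-of-ratios and library-total scaling, DESeq2 1.42.0, limma-voom (limma 3.58.1), no filter or a stricter one, the pool as a block, all 48 libraries, and leaving out pools or libraries. The fits were tested on simulated data. Plots used matplotlib 3.10.9 under Python 3.11.15.

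Named genes were the 8 highest and 8 lowest ratios among calls with at least 20 CPM of mRNA and 1 sign in all pools, the 2 members of each of 28 groups with the smallest p, and a panel of lipid, glycolytic, translation, histone and cell cycle genes; between sizes the 5 highest and 5 lowest calls. Not all are printed, and others are marked as named after their values were seen. The comparison, the groups and the panel were chosen with earlier results of these data known.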

Additional observations from a re-analysis of the deposited data

Results flagged for a closer look

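With pools B and C alone, the ratio of footprints to mRNA differed between 75 and 40 fl for 219 genes by the interaction test of edgeR, whereas no gene differed over all 3 pools. The choice of pools was made after the data were seen, and the comparison rests on 2 pools per size. Over all pools the footprint libraries labelled replicate A at 40 and 75 fl, which go against their labels, enter the fit. Groups of 3 libraries were not searched for outlying values.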

How the results depend on the processing

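The 1897 calls of footprints against mRNA at 75 fl stayed within 1.5 times under every alternative, from 1486 to 1738 when 1 pool was left out. The lower bound was reached without pool C and the upper without pool A. Higher calls then ranged from 688 to 879 and lower ones from 756 to 859. With library totals the split became 350 higher and 1646 lower, a shift of the median from -0.16 to -1.16, and 25 of 28 group medians moved by more than their spread between pools. With median-of-ratios factors the median was 0.01, with 1015 higher and 857 lower. The fit paired by label, with the pool as a replicate block, called 883 higher and 1018 lower, 1806 of them shared with the fit without it. In that fit CTS1, VMA10, MRPL9, RUD3 and MDM20 lost their calls, CPA1 and CLN3 gained one, and no other of the 105 genes printed with a ratio at 75 fl changed its call. Leaving out 1 pool cost between 6 and 13 of those genes their call.

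Signs turned for few of the 105 genes printed with a ratio at 75 fl. Over all genes, 1834 of the 1897 calls kept their sign under library totals. Groups near 0 moved more under that scale: 9 of 30 nuclear pore genes were below 0 in the main fit and 22 under library totals. Under library totals MRPL9 was at -0.17, HHF2 at -0.89 and CLN3 at -0.056. HTA2 ranged from -1.003 to 0.55 when 1 pool was left out, the upper value without pool A, and was at 0.21 without the footprint library labelled replicate A. HHF2 was at -0.24 with limma-voom, and from -0.22 (without pool B) to 1.31 (without pool A) when 1 pool was left out, with -0.087 without pool C.

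Between 75 and 40 fl, DESeq2 called 30 genes, 12 higher and 18 lower, and pools B and C of all sizes gave 219, 79 higher and 140 lower; in that choice 2 genes, both lower, differed from 55 fl. All other alternatives, including each pool left out at 75 fl (0 to 0), gave 0 calls. Against 40 fl, differences without pool A at 75 fl were -0.37 for FAS2 and -1.28 for OLE1, without that footprint library -0.21 and -1.35, and in pools B and C -1.06 and -1.89, each of opposite sign to the fit of all pools. Without pool B, FAS2 was at 1.05 and OLE1 at 1.60, the upper ends of their ranges. DBP2 ranged from -2.66 without pool A to 0.76 without pool B, with 0.22 without pool C and 0.25 without mRNA library B, and DYN1 from -0.25 without pool C to 2.31 without pool A. The cause of these moves was not tested. Genes under 10 footprint reads limit the depth for low ratios, and the 3 pools limit the precision.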
